A study of Sus scrofa with 6 samples.

Results

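The 10 genes described here are markers of tissue macrophages in cultures of neonatal porcine Sertoli cells (NPSC). They are LYZ, TYROBP, FCER1G, CSF1R, CD68, CD14, C1QA, LAPTM5, CTSS and MRC1, 10 of the 25149 genes listed in the files and 10 of the 17512 genes tested. The list was named by gene identifier and chosen by measured values of these same 6 libraries, in which LYZ had the lowest fold change of all tested genes, so that the values of the 10 genes in the comparison of the conditions are given as a description. Where a count of members past a threshold is printed, it stands beside the share of all genes and supports nothing. The list has no cut-off, so there are no members just inside or outside it. In each of the 3 baseline libraries all 10 genes had more counts than the background expected for their length (1.44 to 38.8 times), although the cells are labelled as Sertoli cells.

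The study asked which genes of NPSC respond when the cells meet human complement, the serum system that destroys xenografts. Testes of male Duroc-Landrace pigs aged 3 to 5 days, from 3 litters, were digested, and NPSC of wild-type genotype were plated in DMEM with fetal bovine serum. In baseline NPSC (n = 3) part of the medium was replaced by DMEM, and in complement NPSC (n = 3) it was replaced by an equal volume of pooled human serum with active complement for 90 min. Plates were rinsed before the cells were lysed. There was no group with heat-inactivated serum among these libraries, so serum as such and complement cannot be told apart. All animals were young, the human serum was from a pool, and neither labels nor methods tie the replicate numbers of the groups to each other. The p-values of the other gene lists below therefore measure only the spread between these 6 samples.

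Testicular macrophages lie in the interstitium beside the Leydig cells and on the surface of the seminiferous tubules. They depend on the growth factor CSF1 through its receptor CSF1R, take up glycoproteins and debris through scavenger and lectin receptors such as MRC1, and degrade them in lysosomes rich in cathepsins. Their surface receptors for antibody and for pattern ligands signal through small adaptors with an immunoreceptor tyrosine-based activation motif (ITAM), TYROBP and FCER1G, and they secrete lysozyme and the first component of the classical complement pathway.

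Reads counted on genes came to between 3641518 and 8371923 per library, and the 3 complement NPSC libraries were the 3 with the fewest. The libraries also differed in counts on 48 olfactory receptor genes, the odour receptors of the nose. The density of these counts was 2.15, 1.20 and 1.18 CPM (counts scaled to the library size) per kilobase of exon in baseline replicates 1, 2 and 3, and 4.01, 4.43 and 1.51 in complement replicates 1, 2 and 3. Exon length times this density is called the expected background of a gene below, and it is an average that differs between genes: the 47 olfactory receptor genes on chromosomes had 16 to 193 counts over the 6 libraries, and of 19893 genes on chromosomes with more than 20 expected counts 498 had 0. All 2451 genes on unplaced scaffolds were listed at 0, whatever their function, so a 0 there gives no level. The other olfactory receptor gene is on such a scaffold, and without it every expected background would be 2.17% higher. In bulk RNA, fewer macrophages and less RNA per macrophage cannot be told apart. No other gene of the files overlapped the span of a member, so none of the 10 could hold the reads of a listed neighbour.

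The summed level of the 10 genes overlapped between the conditions. Their CPM summed to 189, 138 and 246 in baseline replicates 1, 2 and 3 and to 158, 173 and 133 in complement replicates 1, 2 and 3. The ratio of the complement mean to the baseline mean was 0.811 ± 0.252 (propagated SD, n = 3 per group). Of the 10 log2 fold changes (LFC, complement over baseline), 7 were negative and the median was −0.45, beside a median of 0.02 and 48.5% negative over all genes tested. The adjusted p was under 0.05 for 0 of 10 members in edgeR's quasi-likelihood test (0.103% of all genes tested), and the unadjusted p was under 0.05 for 4 members, all lower in complement NPSC (4.28% of all genes in that direction; 10.9% of all genes in the other, where no member was). The DESeq2 Wald test called 1 member, LYZ (0.424% of all genes it tested). For LYZ, TYROBP and FCER1G all 3 complement libraries lay below all 3 baseline libraries (8.14% of all genes), and for 0 members all lay above (8.95%). Nothing is read from these counts, since the contrast chose the genes.

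**Figure D1:**
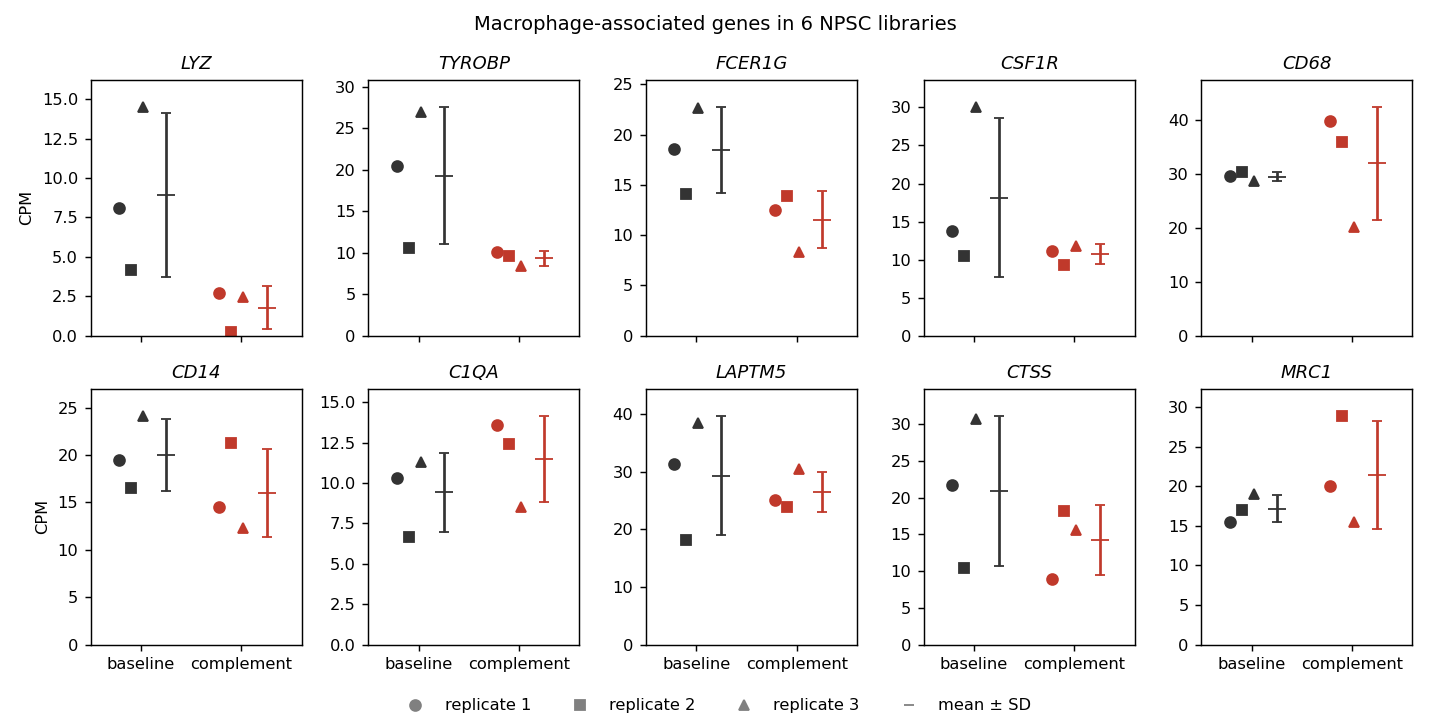
CPM (TMM-scaled, linear axes from 0, a scale per gene) of the 10 genes in the 3 baseline NPSC (dark) and 3 complement NPSC (red) libraries. Symbols mark the replicate number and bars the mean ± SD (n = 3); LYZ, TYROBP and FCER1G have no overlap between the groups, while CD68, C1QA and MRC1 have higher means in complement NPSC with overlapping libraries.

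LYZ encodes lysozyme C, the secreted enzyme that cleaves bacterial peptidoglycan and a bulk product of macrophages. The gene (ENSSSCG00000000492) lies on chromosome 5 from 36179190 to 36185575 on the minus strand in the coordinates of the files, whose build is not named, with 1287 bp of exon. It had 56, 27 and 110 counts in baseline replicates 1, 2 and 3 and 12, 1 and 14 in complement replicates 1, 2 and 3. Every complement library was below every baseline library, and complement replicate 2 was nearly without LYZ counts. In CPM this was 8.12, 4.18 and 14.5 against 2.67, 0.239 and 2.43, and the LFC was −2.28 ± 0.59 (SE). The exact Poisson 95% interval, which covers counting error only, was 2.75 to 6.08 CPM in the lowest baseline library and 1.38 to 4.67 CPM in the highest complement library, so the nearest libraries of the groups were not separated by counting error. The baseline libraries alone spanned 3.47-fold.

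LYZ counts in complement NPSC were near or under the background expected for a gene of its length. The ratio of counts to expected background was 2.97, 2.44 and 8.63 in baseline replicates 1, 2 and 3 and 0.592, 0.0481 and 1.13 in complement replicates 1, 2 and 3. Complement replicate 2, with 1 count where 20.8 were expected, shows that the average background does not hold for LYZ. The expected background was 22.1% of the baseline counts of LYZ and 43.7% of its counts over the 6 libraries. Subtracting it left 37.2, 15.9 and 97.3 counts in baseline NPSC against 0, 0 and 1.56 in complement NPSC, which is at the floor of 3 counts, so no fold is given on that scale.

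TYROBP had the next lowest LFC of the 10. TYROBP (ENSSSCG00000002919; chromosome 6, 40711873 to 40715184, minus strand, 531 bp of exon) encodes DAP12, the ITAM adaptor of TREM and other activating receptors. It had 141, 68 and 204 counts in baseline NPSC against 45, 40 and 48 in complement NPSC, or 20.4, 10.5 and 26.9 CPM against 10.0, 9.54 and 8.34 CPM. The complement libraries were tightly grouped, with an SD of 9.30% of their mean, and baseline replicate 2 stood close above them, apart from the other baseline libraries. The LFC was −1.06 ± 0.33 (SE). TYROBP was well above background in all 6 libraries, at 4.66 to 38.8 times the expected counts, and the expected background was 4.26% of its baseline counts and 16.6% of its complement counts.

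FCER1G (ENSSSCG00000006357; chromosome 4, 97099150 to 97103132, minus strand, 894 bp of exon) encodes the gamma chain shared by Fc receptors, the other ITAM adaptor. Its counts were 128, 91 and 172 in baseline NPSC against 56, 58 and 48 in complement NPSC. On the CPM scale the libraries were at 18.6, 14.1 and 22.7 against 12.5, 13.8 and 8.34. The groups did not overlap, but baseline replicate 2 and complement replicate 2 differed by less than the spread within either group. The LFC was −0.68 ± 0.29 (SE), and the counts were 3.98 to 19.4 times the expected background.

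Of the receptors, CSF1R, which carries the CSF1 and IL34 survival signal, was the lowest in LFC. CSF1R (ENSSSCG00000014441; chromosome 2, 157856239 to 157882290, minus strand, 3128 bp of exon) had 95, 68 and 228 counts in baseline NPSC against 50, 39 and 68 in complement NPSC. In CPM it was 13.8, 10.5 and 30.0 against 11.1, 9.30 and 11.8. Baseline replicate 3 alone was high, and the other 5 libraries lay between 9.30 and 13.8 CPM. The LFC was −0.75 ± 0.35 (SE) with all libraries and −0.19 without baseline replicate 3. It was −0.44 ± 0.46 (SE) with the background density as a covariate. Subtracting the background left 0.709, 0 and 37.8 counts in the complement libraries, 2 of them under the floor of 3 counts, so no fold is given on that scale. CSF1R counts were 1.01 and 0.772 times the expected background in complement replicates 1 and 2 and 2.25 times in complement replicate 3, beside 2.08, 2.53 and 7.36 times in baseline NPSC.

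CD14 and MRC1, the other receptors, overlapped between the groups. CD14 (ENSSSCG00000014369; chromosome 2, 148291451 to 148293622, minus strand, 2172 bp of exon), the co-receptor that hands lipopolysaccharide to TLR4, was at 19.4, 16.6 and 24.1 CPM in baseline NPSC and 14.5, 21.2 and 12.3 CPM in complement NPSC. Complement replicate 2 was second only to baseline replicate 3, and the LFC was −0.33 ± 0.27 (SE). MRC1 (ENSSSCG00000011038; chromosome 10, 48856012 to 48960937, plus strand, 5090 bp of exon), the mannose receptor of tissue macrophages, was at 15.5, 17.0 and 19.0 CPM in baseline NPSC and 20.03, 28.9 and 15.5 CPM in complement NPSC. Its LFC of 0.31 ± 0.26 (SE) was the highest of the 10, but MRC1 is the longest of the genes and its counts were only 1.122 to 2.86 times the expected background in the 6 libraries. After subtraction of the background its LFC was −0.26 ± 0.56 (SE), so the direction of MRC1 is not set by these data.

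The lysosomal members went different ways. CTSS (ENSSSCG00000006648; chromosome 4, 107666299 to 107691564, plus strand, 1436 bp of exon), cathepsin S of the antigen-processing compartment, was at 21.7, 10.4 and 30.7 CPM in baseline NPSC and 8.90, 18.1 and 15.6 CPM in complement NPSC, with an LFC of −0.56 ± 0.36 (SE). Baseline replicate 2 lay among the complement libraries. LAPTM5 (ENSSSCG00000025034; chromosome 6, 81070177 to 81095159, minus strand, 795 bp of exon), a lysosomal membrane protein of blood-derived cells, was at 31.3, 18.1 and 38.5 CPM against 25.1, 23.9 and 30.4 CPM, with an LFC of −0.15 ± 0.26 (SE). CD68 (ENSSSCG00000017956; chromosome 12, 55296985 to 55299524, minus strand, 1305 bp of exon), the sialomucin of macrophage lysosomes, was at 29.6, 30.3 and 28.7 CPM against 39.8, 36.0 and 20.1 CPM, with an LFC of 0.11 ± 0.24 (SE). CD68 was the steadiest gene at baseline, with an SD of 2.74% of the mean, and the complement libraries lay on either side of it.

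C1QA (ENSSSCG00000003524; chromosome 6, 74609912 to 74612993, plus strand, 1097 bp of exon) encodes the A chain of C1q, the recognition unit of the classical complement pathway, which macrophages make locally. It had 71, 43 and 86 counts in baseline NPSC against 61, 52 and 49 in complement NPSC, or 10.3, 6.66 and 11.3 CPM against 13.6, 12.4 and 8.51 CPM. Complement replicates 1 and 2 were the highest of the 6 libraries and complement replicate 3 lay within the baseline range. The LFC was 0.28 ± 0.32 (SE), less than its error.

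**Figure D2:**
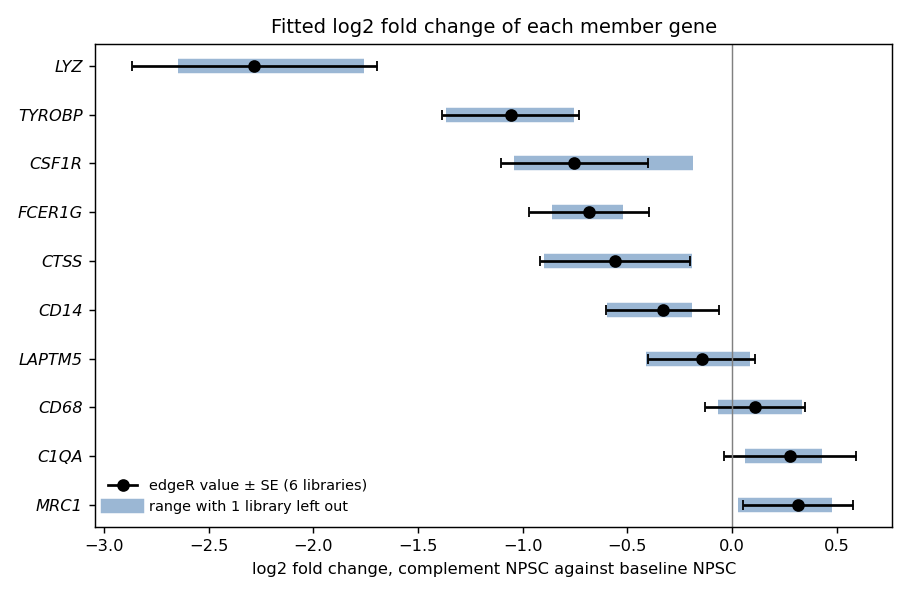
Fitted log2 fold change (complement NPSC against baseline NPSC) of each of the 10 genes with its SE (black, 6 libraries), and the range of the value when each library is left out in turn (blue bar). LYZ at −2.28 and TYROBP at −1.06 stay below −0.75 in all 6 such fits, while CSF1R reaches −0.19 and LAPTM5 and CD68 cross 0.

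The spread at baseline followed the library for most of the genes. Baseline replicate 3 had the highest CPM of the 3 baseline libraries for 9 of 10 members, beside 31.1% of all genes tested, and baseline replicate 2 had the lowest for 8 of 10, beside 25.8%. The same counts were 5 and 8 of 16 for the other macrophage genes listed below, and 4 and 8 of 12 for the pan-leukocyte genes. Since the members were chosen from these same libraries, their counts are a description. The ratio of baseline replicate 3 to baseline replicate 2 was 3.47 for LYZ, 2.96 for CTSS, 2.85 for CSF1R, 2.55 for TYROBP and 2.12 for LAPTM5. It was 1.70 for C1QA, 1.61 for FCER1G and 1.46 for CD14, and it was near 1 for MRC1 (1.11) and CD68 (0.947). TYROBP, FCER1G, CSF1R, CD14, C1QA, LAPTM5 and CTSS put the 3 baseline libraries in the same order as LYZ, and CD68 and MRC1 did not. Baseline replicate 3 was also the library with the most HBB, beta globin of red cells, at 46.8 CPM. HBB was at 3.91 and 9.13 CPM in baseline replicates 1 and 2 and 1.74 to 7.57 CPM in complement NPSC. The other erythroid markers differed. In baseline replicate 3 SLC4A1 (13.7 CPM) and HBM (1.58 CPM) were at their lowest of the 6 libraries. ALAS2 was at 5.27 CPM there, beside 2.61 and 4.49 CPM in baseline replicates 1 and 2. The part of blood cells in the values of that library was not tested. Without baseline replicate 3 the median LFC of the 10 genes was −0.19 and 6 were negative. LYZ and TYROBP were then at −1.76 and −0.75.

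Among the complement libraries the order was another. For 6 of 10 members complement replicates 1 and 2, the libraries with the densest olfactory receptor counts, were each above complement replicate 3, which was the lowest of all 6 libraries for 5 members (TYROBP, FCER1G, CD68, CD14 and MRC1). The expected background was 39.3% and 39.4% of the summed member counts in complement replicates 1 and 2, 22.3% in complement replicate 3, and 9.39% to 19.9% in baseline NPSC. With the density as a covariate in the edgeR fit, all 10 LFC were negative, with a median of −0.47, and none had an adjusted p under 0.05. Those of MRC1 (−0.016 ± 0.30, SE), LAPTM5 (−0.033 ± 0.31), C1QA (−0.11 ± 0.35) and CSF1R (−0.44 ± 0.46) were smaller than their errors. The densest libraries were both complement NPSC, so the covariate and the exposure can be only partly told apart. This limit holds wherever the covariate is used below. With the expected background subtracted, 7 of 10 were negative, with a median of −0.56.

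**Figure D3:**
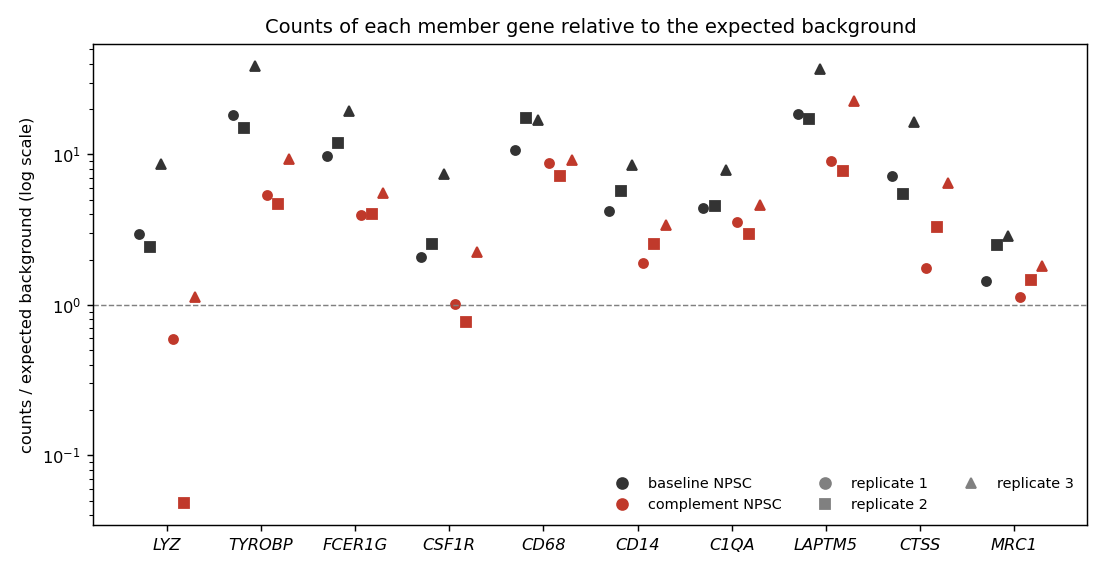
Counts of each gene divided by the background expected from its exon length (log axis, dashed line at 1) in the 6 libraries. TYROBP, LAPTM5, CD68 and FCER1G lie above 3 in every library, LYZ is at 0.592, 0.0481 and 1.13 in complement NPSC, and MRC1 lies between 1.122 and 2.86 throughout.

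Levels were compared between genes per kilobase of exon. In baseline NPSC the order of mean CPM per kilobase was LAPTM5 (36.9 ± 12.99, SD, n = 3), TYROBP (36.3 ± 15.5), CD68 (22.6 ± 0.62), FCER1G (20.6 ± 4.80), CTSS (14.6 ± 7.10), CD14 (9.22 ± 1.75), C1QA (8.59 ± 2.24), LYZ (6.94 ± 4.04), CSF1R (5.79 ± 3.34) and MRC1 (3.37 ± 0.34). Each gene overlapped its neighbour in that order. LAPTM5 exceeded 86.4% of the genes tested, LYZ 37.7% and MRC1 17.4%. In complement NPSC LAPTM5 (33.3 ± 4.36, SD, n = 3) and CD68 (24.5 ± 8.002) led, followed by TYROBP (17.5 ± 1.63), FCER1G (12.9 ± 3.20), C1QA (10.5 ± 2.42), CTSS (9.90 ± 3.32), CD14 (7.37 ± 2.14), MRC1 (4.21 ± 1.34), CSF1R (3.44 ± 0.41) and LYZ (1.38 ± 1.04). In that group 3 steps were without overlap, from TYROBP to FCER1G, from CD14 to MRC1 and from CSF1R to LYZ, and LYZ moved from the eighth place to the last.

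Counts of 2 genes within a library can be compared without any scaling between libraries, and TYROBP was used as the partner because it was far above background. LYZ made up 28.4%, 28.4% and 35.0% of the LYZ plus TYROBP counts in baseline NPSC against 21.1%, 2.44% and 22.6% in complement NPSC. The groups did not overlap, but the exact (Clopper-Pearson) 95% intervals of complement replicates 1 and 3, 11.4% to 33.9% and 12.9% to 35.0%, included the baseline shares of replicates 1 and 2. The LFC of LYZ beyond that of TYROBP thus rested most on complement replicate 2 in the counts as deposited. After subtraction of the expected background the shares were 21.8%, 20.1% and 32.9% in baseline NPSC against 0%, 0% and 3.52% in complement NPSC. The LYZ counts left in complement NPSC were under the floor of 3 counts, and negative values were set to 0. The average background does not hold for LYZ, so nothing is read from the gap between these shares.

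Since TYROBP was itself among the lowest in LFC (rank 50 of 17512), 40.9% of all other genes tested took a higher share against it in all 3 complement libraries, and 24.2% did so with the background subtracted. A lower share in all 3 was found for 0.0114% of genes, or 2 including LYZ, and for 0.497% with the background subtracted. LYZ had the lowest LFC of all genes tested and was chosen for it, so these small shares support nothing. The 3 members with a higher share, of 9, are near the share of all genes, and their values are a description. C1QA was at 29.7% to 38.7% of the C1QA plus TYROBP counts in baseline NPSC and at 50.5% to 57.5% in complement NPSC. LAPTM5 went from between 58.9% and 63.2% to between 71.4% and 78.5%. These groups stayed apart after subtraction of the background (27.4% to 34.6% against 47.3% to 54.4% for C1QA, and 58.8% to 63.5% against 73.3% to 79.6% for LAPTM5). MRC1 was also higher, at 41.4% to 61.8% against 65.0% to 75.2%, but overlapped after subtraction. FCER1G, CSF1R, CD68, CD14 and CTSS overlapped between the groups on this measure.

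**Figure D4:**
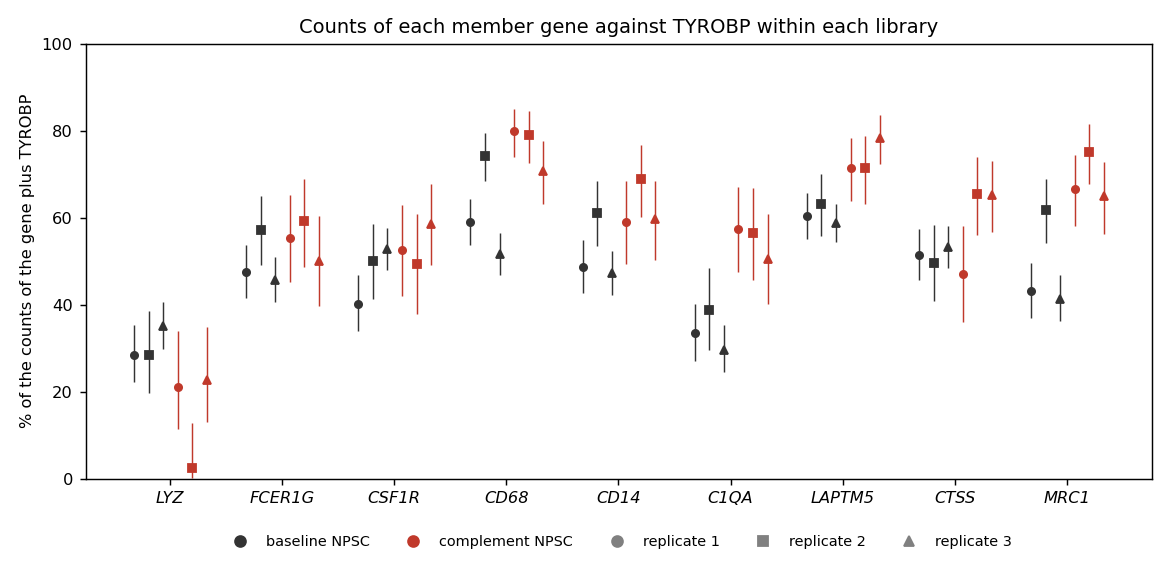
Percent of each gene in the sum of its counts and the TYROBP counts of the same library, with exact 95% binomial intervals that cover counting error only. LYZ is lower in complement NPSC (red) than in baseline NPSC (dark), with the widest gap in complement replicate 2 at 2.44%; C1QA, LAPTM5 and MRC1 are higher in all 3 complement libraries.

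The genes nearest to LYZ over the 6 libraries were not macrophage genes. Likeness was taken as the root mean square difference of log2 CPM, each gene centred on its mean, over 9994 genes with a symbol and a mean of at least 5 CPM. The nearest were ACKR4 (0.93), SMAD6 (0.94), ACKR3 (0.98), EFEMP1 (1.01) and HIC1 (1.02), so even the closest gene differed from LYZ by nearly a log2 unit. TYROBP ranked 16, CSF1R 52 and FCER1G 996 among the genes nearest to LYZ, while CD68, C1QA and MRC1 ranked between 6748 and 7700. ACKR4, an atypical chemokine receptor, was at 50.3, 33.6 and 53.6 CPM in baseline NPSC and 34.1, 15.7 and 37.3 CPM in complement NPSC. Like LYZ it was lowest in complement replicate 2. SMAD6, an inhibitor of bone morphogenetic protein signalling, was at 99.2, 87.9 and 138 CPM against 63.9, 38.6 and 87.0 CPM.

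TYROBP had close companions. The nearest were BOLA1 (0.25), CCL3L1 (0.26), LGMN (0.28), WNK3 (0.28) and FCER1G (0.29), and CSF1R ranked 10. FCER1G, the other ITAM adaptor of the 10, thus ranked 5 of 9994 genes. CCL3L1, a chemokine of activated macrophages that belongs to a family of near-identical copies and is therefore uncertain in its counts, was at 13.9, 6.04 and 13.7 CPM in baseline NPSC and 7.79, 8.35 and 5.21 CPM in complement NPSC. LGMN, the lysosomal protease legumain, was at 255, 152 and 247 CPM against 115, 103 and 141 CPM. LYZ ranked 9270 by this measure, which follows from the width of its swings. These are likenesses over 6 libraries that share the design and the background. The members were chosen with their fold changes in these libraries known, so the ranks of members near LYZ or TYROBP support nothing.

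Other genes of macrophages had fold changes of either sign. Of 30 listed, 16 were matched by symbol and tested. In edgeR 0 had an adjusted p under 0.05, 4 had an unadjusted p under 0.05 and were higher in complement NPSC (10.9% of all genes tested), and 0 were lower (4.28%). The DESeq2 Wald test called 0. The median LFC was 0.30, 5 of 16 were negative, and in 15 of 16 both complement replicates 1 and 2 were above complement replicate 3. That order also held for 12 of 12 pan-leukocyte genes and 8 of 8 lymphocyte markers, but for 0 of 19 lysosome genes. Its share over all genes tested was not computed, here or for the 10 members. The summed CPM was 278 to 340 in baseline NPSC and 272 to 425 in complement NPSC, and the expected background was 29.7% of the counts. With the density of olfactory receptor counts as a covariate the median was −0.19, with 10 of 16 negative, and with the background subtracted it was 0.19, with 6 of 14 negative. SIGLEC1, the sialoadhesin of resident macrophages, had an LFC of 0.18 ± 0.21 (SE), and STAB1, a scavenger receptor, 0.45 ± 0.22 (SE). The lowest of the list, named after their values were seen, were MSR1 at −0.64 ± 0.41 (SE) and CCR1 at −0.48 ± 0.35 (SE), and SPI1, the myeloid transcription factor, was at −0.28 ± 0.23 (SE). The 4 genes past the unadjusted threshold, named likewise, were CX3CR1, MARCO, ITGAM and HAVCR2. Expected background was 110% of the counts of CX3CR1 and 88.9% of those of HAVCR2.

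The pan-leukocyte genes and the MHC class II genes also had medians above 0 as counted and with the background subtracted (0.40 and 0.34), and below 0 with the covariate. Of 12 pan-leukocyte genes tested, 0 passed the adjusted threshold in edgeR or DESeq2. At an unadjusted p under 0.05, 1 was lower (4.28% of all genes tested), the actin bundler LCP1. It was at 33.9, 31.9 and 51.8 CPM in baseline NPSC and 21.8, 34.8 and 16.8 CPM in complement NPSC (LFC −0.69 ± 0.27, SE). FERMT3, the integrin activator kindlin-3, had an LFC of 0.11 ± 0.23 (SE). The median of the list was 0.29, and −0.46 with the covariate. Its summed CPM was 181 to 272 in baseline NPSC and 167 to 282 in complement NPSC. PTPRC, which encodes the leukocyte antigen CD45 and was looked at after its values were seen, had 22 to 81 counts per library, of which the expected background came to 95.6% over the 6 libraries. Its counts were 1.05, 1.495 and 2.10 times the expected background in baseline replicates 1, 2 and 3 and 0.585 to 0.748 times in complement NPSC. Of 4 MHC class II genes tested, 1 was higher at an unadjusted p under 0.05 (10.9% of all genes tested), the transactivator CIITA (LFC 0.74 ± 0.27, SE). SLA-DMA, which helps to load peptide, was at 0.51 ± 0.38 (SE). The median of the MHC class II genes was 0.29, and −0.44 with the covariate.

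The partners of the adaptors and receptors are given list by list. Of 11 ITAM signalling genes tested, the median was 0.34 (−0.04 with the covariate and 0.26 with the background subtracted). Of these, 0 passed the adjusted threshold in either tool and 2 had an unadjusted p under 0.05, both higher (10.9% of all genes tested). The kinases with the most counts, LYN and FYN, which act upstream of ITAM signalling, had LFC of −0.26 ± 0.19 (SE) and −0.25 ± 0.19 (SE). Of 7 genes of the CSF1 receptor pathway, 6 were negative with a median of −0.17 (3 negative with a median of 0.04 with library totals, and 6 negative with a median of −0.42 with the covariate and −0.13 with the background subtracted), and 0 had an unadjusted p under 0.05. Its adaptor GRB2 and the ubiquitin ligase CBL, both used by many receptors, were at −0.35 ± 0.20 (SE) and −0.20 ± 0.20 (SE). Of 15 CD14 and toll-like receptor genes, 7 were negative with a median of 0.10 (−0.024 with the background subtracted and −0.21 with the covariate). At an unadjusted p under 0.05, 1 was higher (10.9% of all genes tested) and 2 were lower (4.28%). The signal adaptor MYD88 was at −0.37 ± 0.19 (SE) and the kinase IRAK1 at −0.17 ± 0.23 (SE). BTK of the ITAM list and TICAM1 of the toll-like receptor list lie on unplaced scaffolds and were listed at 0.

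Lysosome genes had mostly negative fold changes, 19 of 19 with TMM scaling, 18 with upper-quartile scaling and 17 with library totals. The TMM values had a median of −0.60 and a range from −0.87 to −0.08, and 13 had an unadjusted p under 0.05, all lower in complement NPSC (4.28% of all genes tested). None passed the adjusted threshold in edgeR or DESeq2. In 9 of 19 all complement libraries lay below all baseline libraries (8.14% of all genes tested), and the expected background was 3.33% of the counts. The summed CPM was 4008, 3414 and 4461 in baseline NPSC against 2462, 2085 and 3229 in complement NPSC, without overlap. Prosaposin (PSAP), the precursor of the sphingolipid activators, was at 916, 875 and 1060.2 CPM in baseline NPSC and 528, 437 and 685 CPM in complement NPSC, with an LFC of −0.79 ± 0.28 (SE). Cathepsin B (CTSB) had an LFC of −0.64 ± 0.29 (SE). The list is not particular to macrophages, since all cells of the testis hold lysosomes, and Sertoli cells are phagocytes themselves. With the background subtracted the median was −0.41 with 17 of 19 negative, and with the covariate −0.39 with 18 of 19 negative.

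Of the macrophage chemokine genes 2 were tested, CCL3L1 with an LFC of −0.67 ± 0.37 (SE) and CCL5 with 0.48 ± 0.28 (SE), and neither had an unadjusted p under 0.05.

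**Figure D5:**
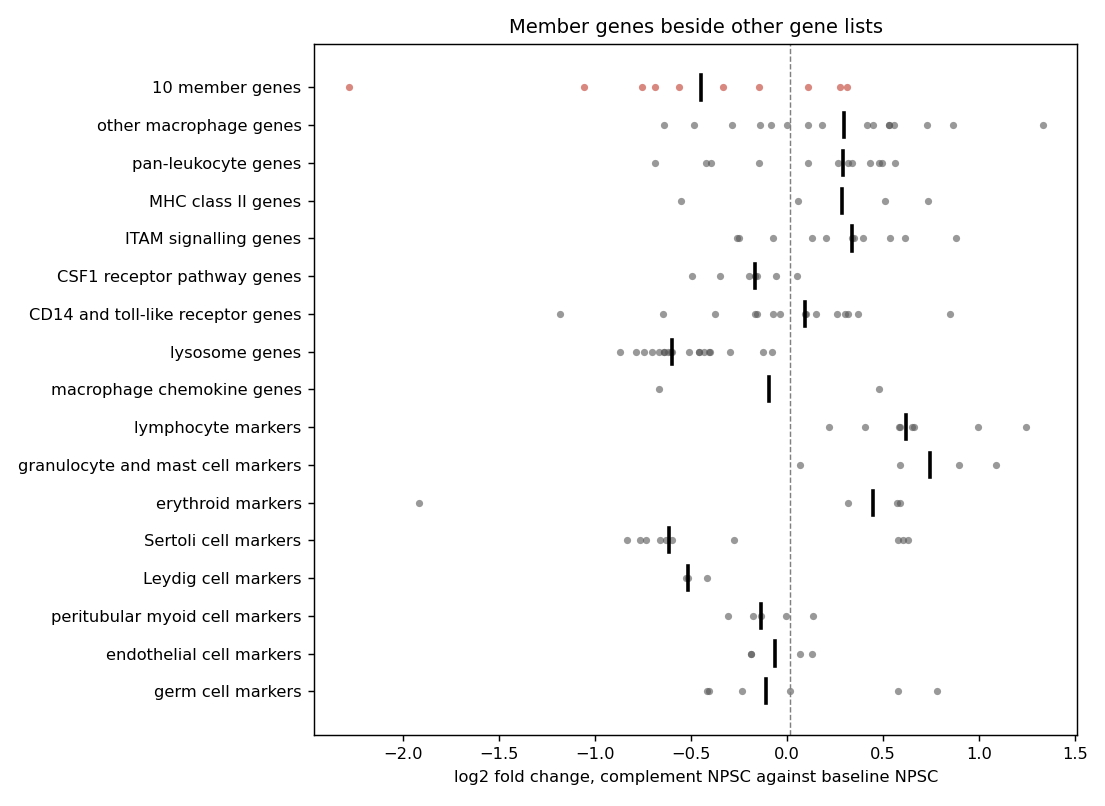
Log2 fold change (complement NPSC against baseline NPSC) of every tested gene of the 10-gene list (red) and of 16 other lists (grey), with the median of each list (black bar) and that of all tested genes (dashed line, 0.02). The 19 lysosome genes all lie below 0 with a median of −0.60 (17 of 19 when scaled by library totals), while the other macrophage genes have a median of 0.30.

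Markers of other cells of the testis were examined beside the 10 genes. Of 10 Sertoli cell markers, 7 were negative with a median of −0.61; 5 were lower (4.28% of all genes tested) and 2 higher (10.9%) at an unadjusted p under 0.05. Their summed CPM was 5028 to 7747 in baseline NPSC and 3318 to 3939 in complement NPSC. The tight junction gene CLDN11 had an LFC of −0.63 ± 0.25 (SE) and clusterin (CLU), a secreted chaperone of Sertoli cells, −0.83 ± 0.40 (SE) in edgeR and −0.89 ± 0.24 (SE) in DESeq2, where its adjusted p was 0.0463. In every library the summed CPM of the Sertoli cell markers was above that of the 10 macrophage-associated genes. The 3 Leydig cell genes tested were all negative, with 1 past the unadjusted threshold (4.28% of all genes tested were lower). The steroidogenic enzyme CYP17A1 was at −0.51 ± 0.21 (SE) and the hormone INSL3 at −0.52 ± 0.26 (SE). Peritubular myoid, endothelial and germ cell markers had medians of −0.14, −0.06 and −0.11, of which the endothelial and germ cell medians were 0.07 and 0.08 with library totals, and 0 of 15 genes had an unadjusted p under 0.05. With the covariate the medians were 0.30, 0.31 and −0.21, and with the background subtracted 0.08, −0.05 and −0.11. Among them ACTA2 was at −0.31 ± 0.38 (SE), TAGLN at −0.17 ± 0.32 (SE), PECAM1 at −0.19 ± 0.30 (SE), KDR at −0.19 ± 0.29 (SE), UCHL1 at −0.24 ± 0.28 (SE) and KIT at −0.41 ± 0.29 (SE). CYP11A1 and MYH11 lie on unplaced scaffolds, where every gene was listed at 0.

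Markers of lymphocytes and of granulocytes and mast cells had positive fold changes as counted, and much background. The 8 lymphocyte markers tested were all positive, with a median of 0.62, and the 4 granulocyte and mast cell markers likewise, with a median of 0.74. At an unadjusted p under 0.05, 4 and 2 of them were higher (10.9% of all genes tested). The expected background was 36.7% and 49.5% of their counts, and the medians were 0.08 and 0.07 with the covariate but 0.83 (7 genes tested) and 0.77 (3 genes tested) with the background subtracted. CD5 of lymphocytes had an LFC of 0.66 ± 0.30 (SE), and MPO and ELANE of granulocytes 0.59 ± 0.27 (SE) and 0.07 ± 0.33 (SE). CSF3R lies on an unplaced scaffold and was listed at 0. Of 4 erythroid markers, HBB had an LFC of −1.92 ± 0.70 (SE), set by baseline replicate 3, and the anion exchanger SLC4A1 of 0.59 ± 0.34 (SE). Over the 16 lists, 0 of 130 genes tested had an adjusted p under 0.05 in edgeR, 39 had an unadjusted p under 0.05, of which 23 were lower (4.28% of all genes tested) and 16 higher (10.9%), and DESeq2 called 1, CLU.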

How the data were processed

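Total RNA of 6 NPSC cultures was sequenced, and the authors deposited raw counts of reads per gene, beside each gene's position and total exon length. The submitters' processing notes name Trimmomatic 0.36, STAR 2.5.2b and featureCounts of Subread 1.5.2; the build and the strand setting are not given in the sources used here. Groups were taken from the sample titles. The members and lists were chosen with earlier results of these data known.

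Counts were fitted over all genes with edgeR 4.0.16 in R 4.3.3 (filterByExpr, TMM, glmQLFit, glmQLFTest; 17512 genes) with Benjamini-Hochberg adjustment. CPM used TMM-scaled totals, and log2 CPM a prior count of 2. The SE of a log2 fold change is its size over the square root of F. Intervals were computed with scipy 1.17.1 and plots with matplotlib 3.10.9 in Python 3.11.15. The fit was tested on simulated data. Counting error limits genes such as LYZ; library totals were 3641518 to 8371923.

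The 16 other lists (macrophage, pan-leukocyte, MHC class II, ITAM signalling, CSF1 receptor pathway, CD14 and toll-like receptor, lysosome and chemokine genes, and markers of lymphocytes, granulocytes and mast cells, erythroid, Sertoli, Leydig, myoid, endothelial and germ cells) were written from general knowledge; 136 of 207 symbols were matched and 130 tested. Named were every member, list genes past the adjusted threshold or otherwise the 2 with the highest mean CPM, and the 5 genes nearest to LYZ and to TYROBP; 1 list gene is not reported here. Alternatives were DESeq2 1.42.0, its size factors, upper-quartile and library-total scaling, other filters, background subtraction or covariate (for the lists, added after seeing the data), a replicate block and leaving out each library. No sequence is printed.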

Additional observations from a re-analysis of the deposited data

How the results depend on the processing

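The log2 fold changes of LYZ, TYROBP, FCER1G, CSF1R, CD14 and CTSS stayed negative under every alternative that could be run. LYZ ranged from −2.64 to −1.76 over the alternatives other than background subtraction, which put its complement counts at the floor and gives no size, and was not tested where every library had to hold 10 counts or more. The fold change of CD68 was −0.41 with the background covariate and −0.068 without complement replicate 1 (−0.068 to 0.33 with 1 library left out), that of C1QA −0.11 with the covariate, that of MRC1 −0.26 with the background subtracted and −0.016 with the covariate, and that of LAPTM5 0.011 with library totals, 0.032 with the background subtracted and 0.087 without baseline replicate 3. Upper-quartile and library-total scaling moved the median of all genes to 0.13 and 0.19.

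With edgeR 0 members had an adjusted p under 0.05. DESeq2 called 1 (LYZ, beside 0.424% of all genes it tested), and with 1 library left out the number was 0 to 1. LYZ was called without baseline replicate 1 (1.80% of all genes called) or without complement replicate 3 (10.1% of all genes called). The 3 members without overlap became 1 (LYZ) with upper-quartile scaling, library totals or background subtraction (6.01%, 5.33% and 7.74% of all genes lower), and 2 to 6 with 1 library left out. It was 2 without baseline replicate 1 (21.1% of all genes lower) or complement replicate 1 (11.4%). It was 6 without baseline replicate 2, all lower (11.5% of all genes), and 6 without complement replicate 3, with 3 lower (28.5% of all genes) and 3 higher (CD68, C1QA and MRC1; 29.1% of all genes). The ratio of summed CPM moved by less than its error. The cause of these shifts was not tested.

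With the replicate number as a block (a paired fit), 4 members were called (LYZ, TYROBP, FCER1G and CSF1R), beside 14.4% of all genes (2515), and 38 list genes in place of 0; DESeq2 called 1 list gene. Correlations of the deviations of same-numbered libraries were 0.456, 0.0302 and 0.482, so the numbers were not taken as pairs, and baseline replicate 2 and complement replicate 2 each correlated best with another number. Over all genes edgeR called 18; DESeq2 called 64, the covariate gave 63, subtraction or no filter 31 each and library totals 29, and leaving out a library gave 9 to 1855, with 327 without baseline replicate 1, 1855 without complement replicate 3, 9 without baseline replicate 2 and 12 without complement replicate 1.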
